A study of Mus musculus with 6 samples.

Results

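The integrated stress response is a switch in translation. Stress kinases phosphorylate the initiation factor eIF2, general protein synthesis slows, and the messenger of the transcription factor ATF4 is translated more. ATF4 pairs with other basic leucine zipper (bZIP) proteins and switches on genes that import and make amino acids, charge tRNAs and, through CHOP (gene Ddit3), adjust survival. In lymphocytes it is known from amino acid shortage and from stress of the endoplasmic reticulum.

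Transcripts of 10 genes of this response were followed: Atf4, Ddit3, Trib3, Atf3, Atf5, Ppp1r15a, Cebpb, Cebpg, Asns and Nupr1. They were taken by symbol or older symbol from the probe annotation, with the brightest probe of each gene, and all 10 were found, each with 1 probe, among 15224 genes tested. Ppp1r15a was listed under its older symbol Myd116. The 10 genes were chosen by their log2 differences between siSpt6 and siControl in these same arrays, which were known when they were put together. Their differences are therefore given as a description, with no p-value.

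The samples were CH12F3-2A cells, an established mouse line from a B cell lymphoma that switches from IgM to IgA when stimulated. Of 6 samples, 3 were electroporated with siRNA against Spt6 (siSpt6) and 3 with control siRNA (siControl). Spt6, encoded by Supt6, is a histone chaperone of elongating RNA polymerase II. All 6 samples, controls included, received CD40 ligand, interleukin 4 and TGF-beta (CIT) 24 h after transfection and were cultured for 24 h more, so no unstimulated cells are compared here. The labels of the groups were written separately and give the 2-mercaptoethanol of the medium in millimolar for siSpt6 and in micromolar for siControl. Whether the media differed cannot be read from the labels. The sample records of the groups are also numbered in separate blocks, and whether their arrays were run together is not stated. A difference in culture or array run cannot be told apart from the siRNA. Whether replicates are separate cultures is not stated, so a p-value here compares groups with the spread among their arrays, which can be purely technical. In RNA from whole cultures, fewer cells of a type and less RNA per cell cannot be told apart.

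One array was used per RNA, in 1 colour, with intensities in arbitrary units, and between 21526 and 22372 probes had a value on an array. The 3 arrays per group limit the precision. Across probes, which are not independent replicates, arrays of either group had pairwise r of 0.988 to 0.991 (Pearson, log2 scale), and arrays of different groups 0.975 to 0.981. The probe of Supt6 read 25.1, 21.8 and 28.1 in siSpt6, against 33.1, 32.1 and 32.1 in siControl, a log2 difference of -0.38 (SE 0.13) that did not pass the threshold (limma adjusted p = 0.0973). With any single array removed it lay between 0.0728 and 0.222 (limma adjusted p). After cyclic loess normalization it passed (limma adjusted p = 0.0491). Of B cell markers, 7 of 9 had probes brighter than the median gene, against 0 of 6 T cell markers and 2 of 6 myeloid markers (Csf1r and Ly6g). None of the T cell or myeloid markers passed the threshold. Among B cell markers Cd79b rose (log2 difference 0.55, SE 0.14, limma adjusted p = 0.0391) and Cd22 fell (-0.62, SE 0.14, limma adjusted p = 0.0281). The call of Cd79b held only without siControl replicate 2 and that of Cd22 only without siControl replicate 1 when single arrays were removed (adjusted p up to 0.104 and 0.0830, limma).

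Atf4, its partner gene Ddit3 and the stress-induced genes Trib3 and Nupr1 were lower in siSpt6, by 1.79-fold to 4.17-fold, and in each of these 4 genes every siSpt6 array lay below every siControl array. The other 6 genes, among them the bZIP genes Atf5, Cebpb and Cebpg, did not pass the threshold of the fit across all probes. Of the 10 genes 4 were called lower and 0 higher. Over all genes tested, 9.65% were called lower and 7.4% higher (limma, Benjamini-Hochberg adjusted p under 0.05). All siSpt6 arrays lay below all siControl arrays in 4 of the 10 genes, and above them in 2, against 21.6% and 16.9% of the 14405 genes with a value on every array. Nothing is read from these counts, since the contrast was known when the genes were chosen. The median log2 difference of the 10 genes was -0.31, beside -0.00 over all genes tested.

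**Figure D1:**
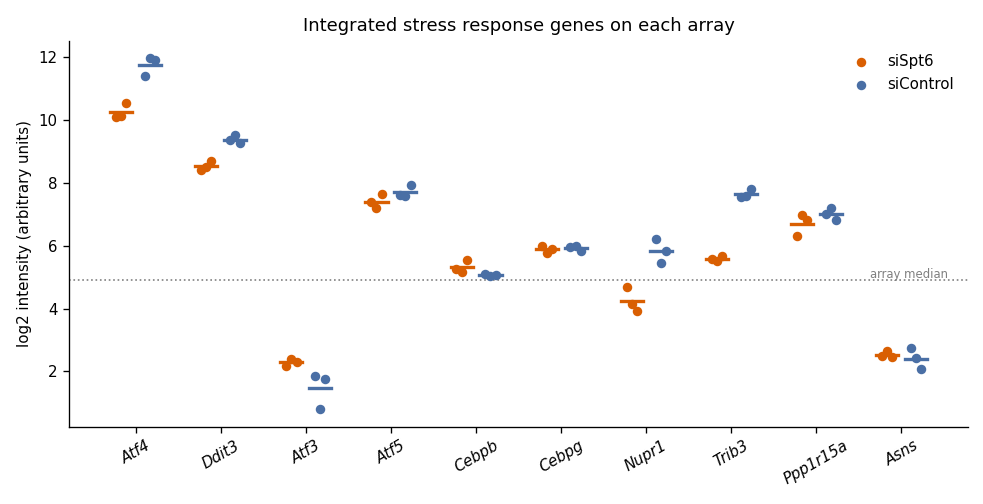
Log2 intensity (vertical axis, arbitrary units) of the 10 stress response genes on each array, siSpt6 in orange left of siControl in blue; points are arrays, bars are group means and the dotted line is the array median. Atf4, Ddit3, Nupr1 and Trib3 have groups that do not overlap with siSpt6 lower; heights of different genes come from different probes and are not comparable.

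Atf4 encodes the transcription factor at the centre of the response. Its probe read 1092, 1114 and 1485 on the siSpt6 arrays, against 2719, 4008 and 3808 on the siControl arrays. The highest siSpt6 array stood under the lowest siControl array, although the siControl arrays were spread. The means were 1230.4 ± 221 in siSpt6 and 3512 ± 694 in siControl (SD, n = 3 each), 2.84-fold lower with a log2 difference of -1.51 (SE 0.20). The probe was brighter than 98.0% of genes tested. In the brightest 10% of genes the median difference was -0.24, and the difference of Atf4 was -1.22 after quantile normalization and -1.25 after cyclic loess normalization. These arrays measure the transcript; the translation of Atf4, which eIF2 controls, was not measured.

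Ddit3 encodes CHOP, a bZIP protein that ATF4 switches on and that pairs with C/EBP proteins. Its values were 339.7, 367 and 414 in siSpt6, against 656, 735 and 614 in siControl, with no overlap. Means of 374 ± 37.4 in siSpt6 and 668 ± 61.4 in siControl gave a 1.79-fold lower level, with a log2 difference of -0.84 (SE 0.13). It was the smallest of the 4 decreases, and genes of like brightness (1 of 10 classes of equal size) had a median difference of -0.11.

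Nupr1 encodes a small chromatin-associated protein induced by many stresses. It read 25.6, 17.9 and 15.2 in siSpt6, against 73.8, 43.3 and 57.2 in siControl. Although arrays within either group were uneven, the groups stayed apart. The mean was 19.5 ± 5.40 in siSpt6 and 58.1 ± 15.3 in siControl, 2.98-fold lower (log2 difference -1.57, SE 0.26).

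Trib3 encodes a pseudokinase that is switched on by ATF4 and CHOP and in turn restrains ATF4. It had the largest decrease of the 10 genes. Its probe read 47.5, 45.9 and 51.5 in siSpt6, against 187, 192 and 226 in siControl. The groups were far apart next to their spread. Its means of 48.3 ± 2.87 in siSpt6 and 202 ± 21.0 in siControl differed 4.17-fold (log2 difference -2.06, SE 0.13). Only 0.0723% of genes tested had a log2 difference as low or lower. Nothing is read from this rank, since the 10 genes were chosen by this difference. The paralog Trib2 went the other way. It rose 2.34-fold, to 1675 ± 263 in siSpt6, against 712 ± 85.8 in siControl (log2 difference 1.23, SE 0.16, limma adjusted p = 0.00465), while Trib1, whose probe was dimmer, did not pass the threshold (log2 difference 0.16, SE 0.16, limma adjusted p = 0.562).

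Atf5, a close relative of Atf4 under the same translational control, read 167, 146 and 200.5 in siSpt6, against 198, 191 and 243 in siControl. The groups overlapped, and the log2 difference was -0.30 (SE 0.17). Ppp1r15a encodes GADD34, the inducible subunit that directs protein phosphatase 1 to eIF2 and closes the response. It read 78.9, 126 and 112 in siSpt6, against 130.0, 147 and 112 in siControl, and its groups also overlapped (log2 difference -0.32, SE 0.20). For these 2 genes leaving out 1 array moved the difference between -0.42 and -0.20 and between -0.46 and -0.12, on the same side of 0 each time.

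Neither C/EBP partner of ATF4 passed the threshold. Cebpg, whose protein pairs with ATF4 on amino acid response genes, read 64.3, 54.9 and 59.3 in siSpt6, against 62.8, 63.4 and 56.9 in siControl. The groups overlapped almost fully (log2 difference -0.04, SE 0.12). Cebpb, which encodes another partner and is itself stress-inducible, read 38.0, 35.5 and 46.6 in siSpt6, against 34.1, 33.1 and 33.3 in siControl. All siSpt6 values of Cebpb lay above all siControl values, but the log2 difference of 0.25 (SE 0.14) did not pass the threshold.

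The remaining 2 genes had dim probes, and the deposited values carry no detection limit. Atf3, an early stress-induced bZIP gene, read 4.50, 5.29 and 4.92 in siSpt6, against 3.64, 1.74 and 3.38 in siControl. The siSpt6 arrays were all higher (log2 difference 0.82, SE 0.28), without passing the threshold, on a probe brighter than only 12.6% of genes. Asns encodes asparagine synthetase, a standard ATF4 target. It read 5.62, 6.23 and 5.52 in siSpt6, against 6.66, 5.34 and 4.22 in siControl, and the groups overlapped (log2 difference 0.12, SE 0.18). The Asns probe was brighter than 19.1% of genes, and whether it reports its transcript was not tested.

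**Figure D2:**
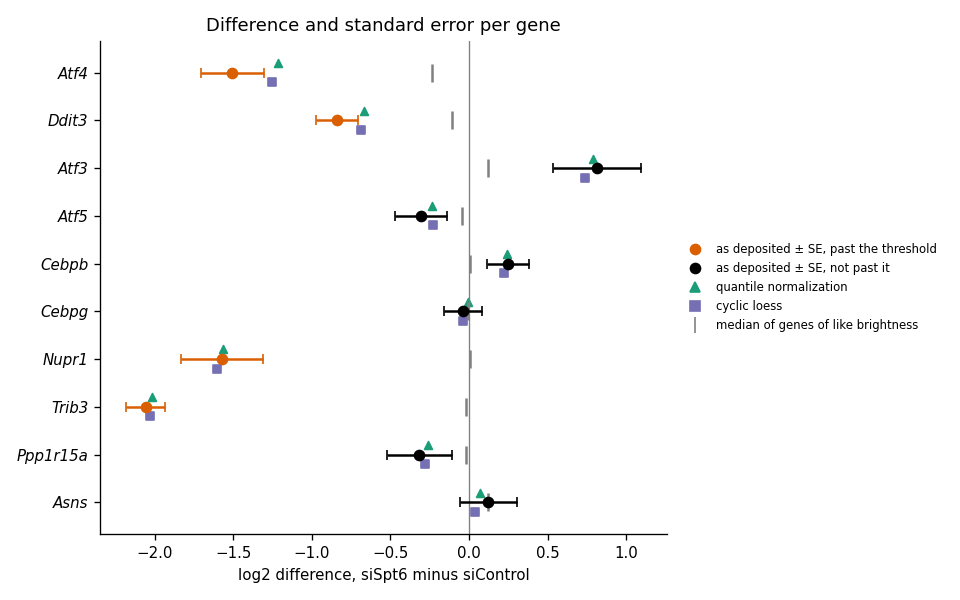
Log2 difference, siSpt6 minus siControl (horizontal axis), of each stress response gene as deposited with its standard error (circles), after quantile normalization (triangles), after cyclic loess normalization (squares), and the median of genes of like brightness (grey ticks). The 4 genes in orange run from -2.06 (Trib3) to -0.84 (Ddit3) and stay below their grey ticks under both normalizations.

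With each of the 6 arrays removed in turn, the log2 differences were -1.68 to -1.40 for Atf4, -0.92 to -0.77 for Ddit3, -2.11 to -1.97 for Trib3 and -1.78 to -1.38 for Nupr1. The array that was highest in siSpt6 for Atf4, Ddit3 and Trib3 (replicate 3) was the lowest for Nupr1. In siControl, replicate 1 was lowest for Atf4 and Trib3 but highest for Nupr1.

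Genes whose 6 values ran most like those of Atf4 were found from the root mean square difference of log2 values, each less its siControl mean, over 14405 genes and 6 arrays. The nearest were Islr (0.09), Ramp2 (0.14), the nucleoside transporter gene Slc29a2 (0.14), 1700013F07Rik (0.14) and the kinase gene Pim2 (0.14). Pim2 averaged 999.6 ± 214 in siSpt6 and 2707 ± 317 in siControl (SD, n = 3 each). Of the 10 genes, Trib3 (0.43), Ddit3 (0.51) and Nupr1 (0.52) were the nearest to Atf4. This distance depends on the log2 difference between the groups, by which the 10 genes were chosen. Nothing is therefore read from their order.

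ATF4 and its partners bind the C/EBP-ATF response element, searched here as the letters TGATGNAA on both strands of RefSeq promoter windows (mouse GRCm38.p6) from 250 bases before to 50 bases after each start site. The windows below show that the element's letters stand both in genes that were lower and in genes that did not pass the threshold. Each is printed 5′ to 3′ on the gene's strand, with the 8 matching letters in capitals (the reverse complement of the motif where the match is on the other strand).
Trib3, chr2:152344028-152344057, minus strand: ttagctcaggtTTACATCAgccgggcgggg
Nupr1, chr7:126625562-126625591, minus strand: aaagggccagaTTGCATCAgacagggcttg
Atf3, chr1:191183425-191183454, minus strand: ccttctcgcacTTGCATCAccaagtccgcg
Asns, chr6:7693214-7693243, minus strand: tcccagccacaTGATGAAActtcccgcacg
Chac1, chr2:119351038-119351067, plus strand: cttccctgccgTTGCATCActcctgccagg
Slc1a4, chr11:20332699-20332728, minus strand: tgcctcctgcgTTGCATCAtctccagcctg
Fgf21, chr7:45615611-45615640, minus strand: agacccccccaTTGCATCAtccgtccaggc

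All 10 stress response genes had a promoter window, and 4 (Trib3, Nupr1, Atf3 and Asns) held the element, against 4.51% of 27025 genes with a window. Among the 12193 genes with a window that were tested on the arrays, the share was 3.25%. Atf4 and Ddit3, both lower, did not hold these letters in their windows. Sequence outside the windows was not searched, so whether Atf4 or Ddit3 carries the element further from its start site was not tested. Ppp1r15a held a cAMP response element (TGACGTCA) at the site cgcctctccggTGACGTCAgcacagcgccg, chr7:45526262-45526291, minus strand. That motif was present in 2.03% of all genes with a window. Of ATF4 target genes, described below with their tests, 12 of 35 with a window held the C/EBP-ATF response element, and among those called lower it was 10 of 26. The element was in 4.05% of tested genes called lower, 2.96% of those called higher and 3.18% of those not past the threshold. The 10 genes and the ATF4 targets were picked as known genes of the response, so nothing is read from their shares. A match of letters is not evidence of binding.

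The genes that ATF4 is known to switch on were examined next, as 4 lists with no overlap with the 10 genes. They were written from general knowledge with earlier results of these arrays known. The counts and adjusted p-values of these and the later lists are therefore given as a description. Of 46 measured targets 36 fell (78.3%) and 2 rose (4.35%), beside 9.65% and 7.4% of all genes tested (limma adjusted p under 0.05). The median log2 difference of the targets was -1.09, and 24 of the falls were at least 2-fold. In amino acid metabolism, 30 of 34 enzymes, transporters and tRNA synthetases fell and 0 rose. Of the 36 genes that fell, 34 were also called lower after quantile normalization and 34 after cyclic loess, and 30 kept their call whichever array was left out. Genes as bright as the targets had a median difference of -0.11 (median over the brightness classes of the targets).

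Among enzymes of amino acid synthesis and breakdown 11 of 12 fell, with a median log2 difference of -1.46. Cth, which makes cysteine, was 164 ± 18.3 in siSpt6 and 1106 ± 118 in siControl (log2 difference -2.76, SE 0.14, limma adjusted p = 0.000342). Chac1, a glutathione-degrading enzyme whose promoter carries the element shown above, read 184, 172 and 184 in siSpt6, against 1007, 942 and 933 in siControl (log2 difference -2.42, SE 0.11, limma adjusted p = 0.000264). Bcat1, the cytosolic branched-chain transaminase, fell 3.41-fold (SE 0.12 on the log2 scale, limma adjusted p = 0.000656). The member that did not pass was Cbs (log2 difference -0.18, SE 0.14).

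Of amino acid transporters 8 of 10 fell (median log2 difference -0.97). Slc7a3, a cationic amino acid carrier, fell 4.99-fold (log2 difference -2.32, SE 0.17, limma adjusted p = 0.000656). The neutral amino acid carriers Slc1a4 and Slc1a5 fell as well. Slc1a4 had a log2 difference of -2.04 (SE 0.21, limma adjusted p = 0.00210), and Slc1a5 was 562 ± 60.4 in siSpt6 and 1121 ± 117 in siControl (limma adjusted p = 0.00558). Slc7a11, the cystine carrier, was dim and did not differ beyond its spread, at 6.94 ± 2.07 in siSpt6 and 6.97 ± 1.05 in siControl.

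Cytosolic tRNA synthetases with the export factor Xpot fell in 11 of 12 cases (median log2 difference -1.10). Nars, which charges asparagine tRNA, was 792 ± 53.5 in siSpt6 and 2308 ± 286 in siControl (log2 difference -1.54, SE 0.14, limma adjusted p = 0.00124). Cars and Yars, for cysteine and tyrosine, fell 2.64-fold and 2.22-fold (limma adjusted p = 0.00106 and 0.00214). Aars, whose probe was dim at 3.47 ± 1.97 in siSpt6 and 3.33 ± 1.53 in siControl, did not pass the threshold.

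Targets outside amino acid metabolism were mixed: 6 of 12 fell (50.0%) and 2 rose (16.7%). The shares over all genes tested were 9.65% and 7.4%. The median log2 difference of these targets was -0.30. The hormone gene Fgf21 was 14.1 ± 1.25 in siSpt6 and 41.4 ± 2.83 in siControl (log2 difference -1.56, SE 0.12, limma adjusted p = 0.000865). Vegfa, an angiogenic factor with a dim probe, and Herpud1, of protein degradation at the endoplasmic reticulum, had log2 differences of -1.88 (SE 0.17, limma adjusted p = 0.00135) and -1.49 (SE 0.17, limma adjusted p = 0.00292). The autophagy gene Map1lc3b rose to 787 ± 202 in siSpt6, against 358 ± 46.2 in siControl (limma adjusted p = 0.0156), a call lost when the first replicate of either group was removed (adjusted p up to 0.0507, limma). Ndrg1, a stress-induced gene also known from hypoxia, had a dim probe and rose 1.56-fold (limma adjusted p = 0.0325). Its call held only without siControl replicate 3 when single arrays were removed (adjusted p up to 0.0906, limma) and was lost after cyclic loess (0.0963). Sqstm1, named here after its values were seen, did not pass the threshold as deposited (log2 difference 0.20, limma adjusted p = 0.303). It was called higher after quantile normalization (log2 difference 0.45, limma adjusted p = 0.0462) but not after cyclic loess (limma adjusted p = 0.0595). Of the 8 targets in all 4 lists that did not pass the threshold, 5 had probes dimmer than the median gene.

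**Figure D3:**
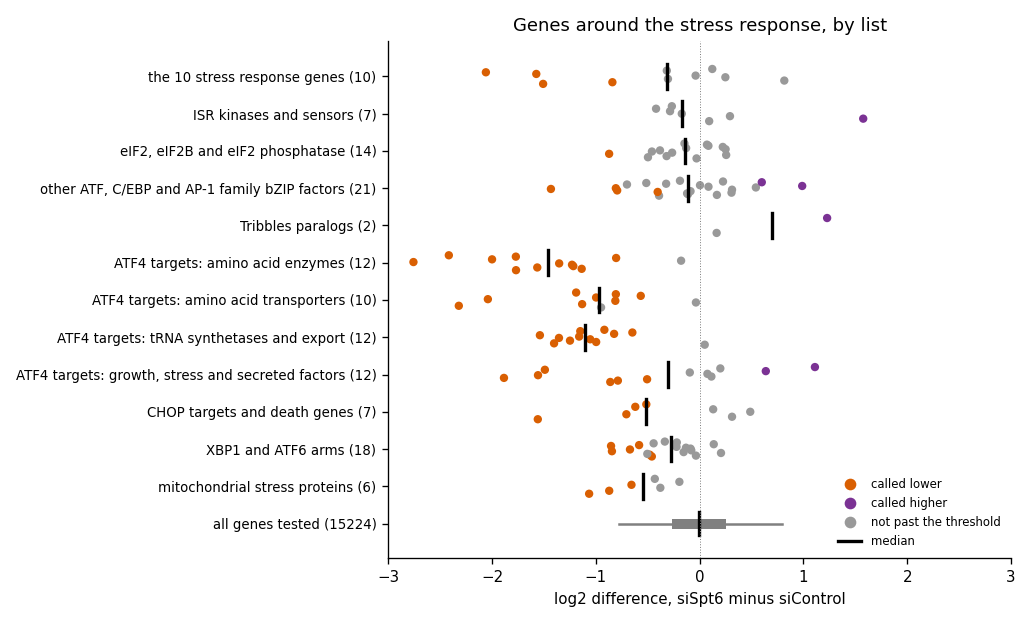
Log2 difference, siSpt6 minus siControl (horizontal axis), of each measured gene by list, with the number of genes in brackets; orange points were called lower, purple points higher and grey points did not pass the threshold, and black bars are medians. The lowest line shows all genes tested, with the thick bar from the 25th to the 75th percentile and the thin line from the 5th to the 95th; the 3 lists of amino acid enzymes, transporters and tRNA synthetases have medians at or below -0.97.

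Upstream of ATF4, 1 of 7 measured kinases and sensors of the response rose (14.3%) and 0 fell, beside 7.4% and 9.65% of all genes tested. After cyclic loess normalization 1 was called lower, Dele1, which encodes a mitochondrial stress sensor and is named here after its values were seen (log2 difference -0.47, limma adjusted p = 0.04999, against -0.42 and 0.0823 as deposited). The riser was Eif2ak3, which encodes PERK, the eIF2 kinase of the endoplasmic reticulum. Its values were 437, 398 and 556 in siSpt6, against 152, 149 and 161 in siControl, a 2.98-fold rise (log2 difference 1.58, SE 0.15, limma adjusted p = 0.00163) that was kept whichever array was left out. Eif2ak4, which encodes the amino acid sensor GCN2, was 306 ± 39.3 in siSpt6 and 249 ± 22.8 in siControl and did not pass the threshold (log2 difference 0.29, SE 0.14, limma adjusted p = 0.228). Eif2ak2, which encodes the RNA-activated kinase PKR, had a log2 difference of 0.09 (SE 0.12). Eif2ak4 and Eif2ak2 are named here after their values were seen.

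Of 14 genes for eIF2, its exchange factor eIF2B and the eIF2 phosphatase, 1 fell (7.14%) and 0 rose. Over all genes tested, 9.65% fell and 7.4% rose. The gene of this list that fell was Eif2b3, a subunit of eIF2B, at 279 ± 1.82 in siSpt6 and 512 ± 43.5 in siControl (log2 difference -0.87, SE 0.12, limma adjusted p = 0.00451). The list's median log2 difference was -0.14.

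Of 21 other bZIP genes of the ATF, C/EBP and AP-1 families, 4 fell (19.0%) and 2 rose (9.52%), beside 9.65% and 7.4% of all genes tested, with a median log2 difference of -0.11. After quantile or cyclic loess normalization 3 were called lower, and without siSpt6 replicate 1 or 2 or siControl replicate 2 or 3 the count was 2. Batf3 and Batf, AP-1 factors of lymphoid cells, had log2 differences of -1.43 and -0.79 (SE 0.11 and 0.13, limma adjusted p = 0.000717 and 0.00821). Jdp2, whose protein can pair with ATF3, fell 1.75-fold (limma adjusted p = 0.0220), a call lost without any 1 of siSpt6 replicates 1 and 2 and siControl replicates 2 and 3 (limma adjusted p up to 0.0725). Atf6b, a relative of the sensor ATF6, passed narrowly (log2 difference -0.40, SE 0.11, limma adjusted p = 0.0494) and lost its call when any array was removed (adjusted p up to 0.134, limma). Fos, with a probe brighter than only 31.1% of genes, was 16.7 ± 2.03 in siSpt6 and 8.48 ± 1.70 in siControl. It rose 1.98-fold (limma adjusted p = 0.0150), a call kept with any array removed (adjusted p up to 0.0495, limma). Nfe2l2, which encodes the oxidative stress factor NRF2, rose 1.51-fold (limma adjusted p = 0.0200). Its call held only without siSpt6 replicate 1 when single arrays were removed (adjusted p up to 0.0664, limma).

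Downstream of CHOP, 4 of 7 measured genes (57.1%) were called lower and 0 higher on their brightest probes: Ero1a, Bbc3, Dnajc3 and Bcl2. Over all genes tested, 9.65% were called lower and 7.4% higher. Ero1a, the oxidase that recharges disulphide formation, was 227 ± 5.68 in siSpt6 and 672 ± 72.3 in siControl (log2 difference -1.56, SE 0.12, limma adjusted p = 0.000865). Bcl2, a survival gene that CHOP is known to repress, is among the 4 only by its brightest probe and cannot be given a direction, since its brighter probe was lower (log2 difference -0.62, SE 0.12) and its dimmer probe higher (1.05, SE 0.14). The death gene Bbc3 fell 1.63-fold (limma adjusted p = 0.0250), a call lost without any 1 of siSpt6 replicates 1 and 2 and siControl replicates 1 and 2 (limma adjusted p up to 0.0804). Dnajc3, which encodes an inhibitor of eIF2 kinases, fell 1.43-fold (limma adjusted p = 0.0341). Its call held only without siControl replicate 1 when single arrays were removed (adjusted p up to 0.102, limma). After quantile or cyclic loess normalization 2 of the 7 genes were called lower and 1 higher. The gene called higher was the death gene Pmaip1, named here after its values were seen (log2 difference 0.67 and 0.66, limma adjusted p = 0.0220 and 0.0222). As deposited, Pmaip1 did not pass the threshold (log2 difference 0.49, SE 0.14, limma adjusted p = 0.0595). Without siSpt6 replicate 1 or 2 or siControl replicate 2 the count called lower was 2.

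The other arms of the unfolded protein response, run by XBP1 and ATF6, had 6 falls (33.3%) and 0 rises among 18 measured genes. Of all genes tested, 9.65% fell and 7.4% rose. The median log2 difference of the 18 genes was -0.28. Genes as bright as these had a median difference of -0.24 (median over their brightness classes), and after quantile or cyclic loess normalization 2 falls were counted. Without siSpt6 replicates 1 or 2 or siControl replicates 2 or 3 the count was 3. Manf and Sdf2l1, secretory pathway genes, fell 1.81-fold and 1.80-fold (limma adjusted p = 0.00549 and 0.00429) and passed after both normalizations. Pdia6, a disulphide isomerase, fell 1.59-fold (limma adjusted p = 0.0101) and did not pass after quantile or cyclic loess normalization (limma adjusted p = 0.0800 and 0.0761). Of 6 mitochondrial stress proteins, a set in which ATF5 is known to act, 3 fell (50.0%) and 0 rose (median log2 difference -0.54). Hspd1, the mitochondrial chaperonin, was 4324 ± 213 in siSpt6 and 9074 ± 1071 in siControl (log2 difference -1.06, SE 0.13, limma adjusted p = 0.00350). Hspa9 and Clpp, a chaperone and a protease subunit of the matrix, fell 1.83-fold and 1.58-fold (limma adjusted p = 0.00761 and 0.0110).

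**Figure D4:**
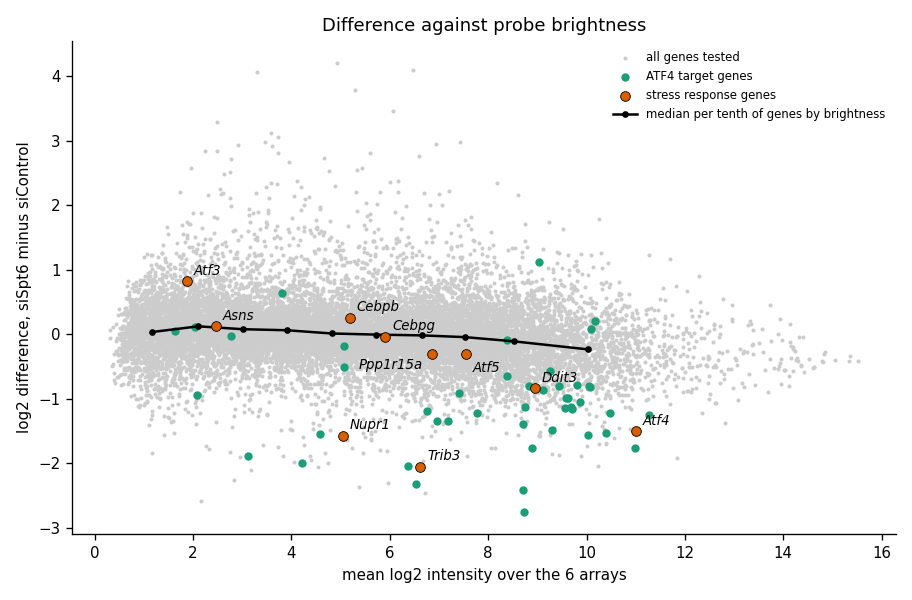
Log2 difference, siSpt6 minus siControl (vertical axis), against mean log2 intensity over the 6 arrays (horizontal axis) for all genes tested (grey), ATF4 target genes (green) and the 10 stress response genes (orange, named). The black line joins the medians of 10 brightness classes of equal size, which lie between 0.12 among dim genes and -0.24 among the brightest; Atf4, Ddit3, Nupr1 and Trib3 lie below it.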

How the data were processed

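The authors deposited 1 table of intensity values on a linear scale, 1 column per array. Per the labels' protocols, RNA was amplified, labelled with Cy5 and hybridised as TORAY, the array maker, prescribes. How background was corrected and values normalized is not given here by any label or header. Array medians lay between 29.97 and 30.00, so values were used as deposited and log2-transformed with no pseudocount. The annotation named 1 gene for 16631 of 23473 probes, several for 0 and none for 6842, and 3947 older symbols were updated through RefSeq names (GRCm38.p6). Probes with at least 2 values in each group (21584) were fitted with limma 3.58.1 (lmFit, eBayes, two-sided) in R 4.3.3, with Benjamini-Hochberg adjustment over all of them and a threshold of 0.05. Each gene was represented by its brightest probe. On simulated data the fit recovered 0 of 67 probes changed 1.5-fold, 19 of 67 changed 2-fold and 55 of 66 changed 4-fold. Only these of 21584 simulated probes were changed, whereas 9.65% of genes tested were called lower and 7.4% higher in these data. The adjustment is stricter when fewer probes differ, so these recoveries do not give the detection rate in these data. Dnajc3, for example, was called at 1.43-fold lower. A gene that did not pass the threshold can still differ.

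The 10 genes and all lists were chosen with earlier results of these data known. Apart from the 10 genes and Supt6, genes were named by a rule: up to 3 rises and 3 falls per list with the smallest adjusted p, all where a list had 5 or fewer, and the 5 nearest to Atf4. Cbs, Slc7a11, Aars and Trib1 were named after their values were seen. Alternatives covered normalization, filters, a pseudocount of 2.66, the variance model, array weights, the replicate block, several probes per gene, stricter thresholds and each array left out.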

Additional observations from a re-analysis of the deposited data

How the results depend on the processing

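Of the 10 stress response genes 4 were called lower under every alternative run; since the genes were chosen on this contrast in these arrays, that count supports nothing. ATF4 targets called lower numbered 36 as reported and 27 to 36 under the alternatives, 34 with the replicate block. The count of probes called was 3525 as reported and 3594 with the replicate block. It was 2099 to 2522 when 1 array was left out (2308 and 2160 without siSpt6 replicates 1 and 2, 2099 and 2230 without siControl replicates 1 and 2), and 1354 at an adjusted p under 0.01. The replicate numbers were not taken to pair the samples. The deviations of same-numbered samples correlated at 0.35, 0.08 and 0.26, and under 0.1 in 1 pair. Differently numbered samples were not compared, so these values do not settle whether the samples were paired. The replicate block lost the calls of Atf6b, Bbc3 and Cd79b. With single arrays removed, the log2 difference of Cebpg ranged from -0.10 (without siSpt6 replicate 1) to 0.0186 (without siSpt6 replicate 2) and that of Asns from -0.0437 (without siControl replicate 3) to 0.29 (without siControl replicate 1), so both turned sign, and neither passed the threshold. The sign also turned for Bcl2 with the mean of its probes (0.21), whose probes disagree. No background signal was used here, so what the dim probes of Atf3 and Asns can show is limited.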
